A study of Mus musculus with 24 samples.

Results

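Retinoic acid, the active form of vitamin A, is made, carried, sensed and destroyed by a small set of gene products, and 9 of these genes were followed across sorted epithelial cells of the pubertal mouse mammary gland. They are Rdh10 and Dhrs3, Aldh1a1, Aldh1a2 and Aldh1a3, Crabp2, Cyp26b1, and the receptor genes Rarb and Rarg. They were taken by symbol from a matrix of 27179 genes, through the Entrez GeneIDs of its rows, and each of the 9 symbols matched 1 row. All 9 were among the 18109 genes that passed the filter on low counts and were tested.

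Bulk RNA-seq gave 24 libraries, 2 for each of 12 groups. Pubertal mammary tissue was microdissected into terminal end buds (TEBs), the bulbous growing tips of the ductal tree, and into the mature ducts behind them. From each, lineage-negative EpCAM+ cells were sorted into a basal gate with high CD29 and a luminal gate with low CD29, and the luminal gate was divided by a fluorescent reporter. In mice of the Elf5-rtTA-IRES-GFP model, in which GFP is tied to Elf5, a factor of milk-secretory luminal cells, the groups were basal, luminal GFP-positive and luminal GFP-negative cells, each from TEBs and from ducts. In mice of the PR-cre/Rosa26-LSL-eYFP model, in which cells with a history of Cre under progesterone-receptor control keep YFP, they were basal, luminal YFP-negative and luminal YFP-positive cells, again from TEBs and from ducts. Every luminal sample therefore carries a reporter allele and comes from 1 model only, so that the mouse model, the reporter and the sort cannot be told apart between GFP-sorted and YFP-sorted cells. The sources used here give neither the age in days nor the strain nor the number of animals behind a library. Nothing in them says whether replicate libraries come from different animals, so the p-values below reflect only how far these samples vary, and that variation may be technical.

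Retinol is turned into retinaldehyde by retinol dehydrogenases such as RDH10, and DHRS3 carries out the reverse step. The retinaldehyde dehydrogenases ALDH1A1, ALDH1A2 and ALDH1A3 then make retinoic acid in a step that is not reversed. CRABP2 brings retinoic acid to the nuclear receptors (RARs), which bind DNA together with RXR partners, and CYP26 enzymes break it down. Retinoic acid has long been studied as a brake on growth and a promoter of differentiation in mammary epithelium, and ALDH activity is widely used to enrich progenitor cells from it.

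The libraries held between 31264622 and 52495208 counts. Levels are given as CPM, counts per 1000000 counts after TMM scaling of the library sizes, and 3 counts correspond to between 0.0571 and 0.096 CPM. Levels of different genes are compared below only as CPM per kilobase of counted exon length. The gate labels were checked on their defining genes. Krt14 ran from 345 to 3619 CPM over the 8 basal libraries, with a median of 1895, and from 0.384 to 1115 CPM over the 16 luminal libraries, with a median of 5.02. The highest luminal value, in GFP-negative duct replicate 2, lay above every basal TEB library (345 to 804 CPM). Krt8 lay between 1584 and 5241 CPM in luminal libraries and between 153 and 478 CPM in basal libraries. Elf5 lay between 410 and 1657 CPM in GFP-positive and YFP-negative libraries, against 15.03 to 87.3 CPM in GFP-negative and YFP-positive ones. Pgr, the progesterone receptor gene, lay between 13.2 and 73.3 CPM in GFP-positive and YFP-negative libraries, against 202 to 635 CPM in GFP-negative and YFP-positive ones. By the meaning of the reporters, GFP-positive and YFP-negative cells are joined below as the Elf5-rich luminal side, and GFP-negative and YFP-positive cells as the Pgr-rich side. In luminal libraries 2 stood apart: the summed CPM of 14 keratinocyte markers was 2899 in GFP-negative duct replicate 2, against 28.9 in its replicate, and 614.0 in YFP-negative TEB replicate 2, against 139.9 in its replicate. Several results that rest on those libraries are given with and without them, and other values over their gates include them.

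Each cell compartment had its own retinoid profile. Basal cells carried Aldh1a1, Rarb and the highest Rdh10, luminal cells carried Dhrs3, and Elf5-rich luminal cells carried Aldh1a3 and Crabp2 at their highest levels. Rarg was present at a similar level everywhere. TEB libraries lay above duct libraries for Rdh10 in each of the 6 sorted gates, without overlap, as for 5.53% of all tested genes. They lay below duct libraries for Crabp2 in all 6 gates (3.14% of all genes) and for Dhrs3 in 5 (8.37% for at least 5). For Crabp2 the gaps in GFP-positive and YFP-negative cells depended on TMM scaling. The ratio of the highest to the lowest of the 12 group means was 652.2 for Aldh1a3, 68.1 for Crabp2, 34.5 for Cyp26b1, 21.9 for Rarb, 19.6 for Dhrs3, 6.77 for Rdh10 and 1.91 for Rarg. Aldh1a1 and Aldh1a2 each had at least 1 group at 0 counts.

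**Figure D1:**
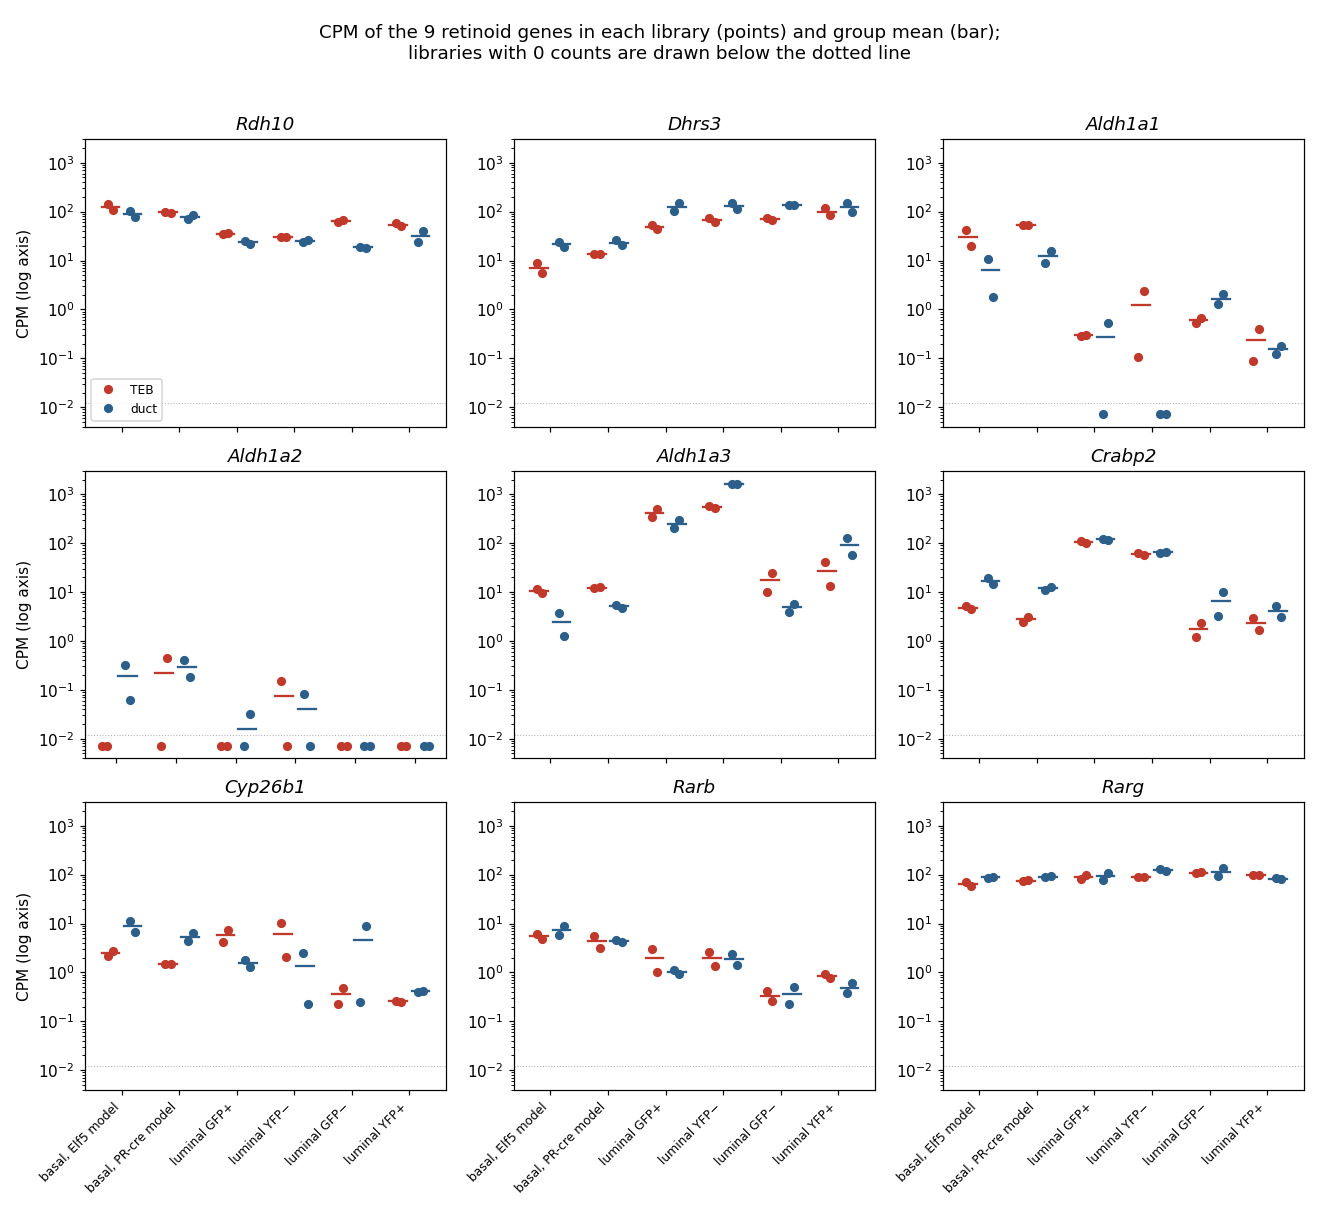
CPM on a log axis of the 9 genes in the 24 libraries, with 1 panel per gene, the 6 sorted gates along the horizontal axis, red points for TEB libraries, blue points for duct libraries and a bar at each group mean of 2; points below the dotted line are libraries with 0 counts. Aldh1a3 and Crabp2 stand high in GFP-positive and YFP-negative cells, Aldh1a1 and Rarb in basal cells, and Rarg stays between 59.4 and 139 CPM throughout.

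How many of the 9 genes passed the test is read against the share of all tested genes that did. In basal TEBs against basal ducts, 6 of the 9 were called at an adjusted p under 0.05 (edgeR's quasi-likelihood test, Benjamini-Hochberg over all genes tested), 3 higher and 3 lower, where 43.6% of all genes were called, 20.9% higher and 22.8% lower. In luminal TEBs against luminal ducts 3 of the 9 were called, where 38.7% of all genes were. Split by side, 2 were called in GFP-positive and YFP-negative TEBs (32.6% of all genes) and 3 in GFP-negative and YFP-positive TEBs (24.6% of all genes). In basal against luminal cells 8 of the 9 were called, 4 higher and 4 lower, where 67.7% of all genes were called, 35.5% higher and 32.2% lower. In GFP-positive and YFP-negative against GFP-negative and YFP-positive luminal cells 5 were called, 4 higher and 1 lower, where 57.1% of all genes were called, 29.6% higher and 27.4% lower. The TEB-to-duct difference itself differed between basal and luminal cells for 2 genes (26.3% of all genes) and between the 2 luminal sides for 2 genes (10.6% of all genes). Within single gates, with 2 libraries against 2, 15 of the 54 pairs of gene and gate were called, and 5 of the 15 stayed called without any 1 library. By gate, 4 genes were called in Elf5-model basal cells (36.4% of all genes), 2 in PR-cre-model basal cells (24.7%), 2 in GFP-positive cells (22.8%), 2 in YFP-negative cells (18.4%), 4 in GFP-negative cells (18.5%) and 1 in YFP-positive cells (7.86%). In a data set in which many genes differ, these counts lie below the background in some comparisons and above it in others. The sizes and the behaviour of each gene in every gate carry the description below. Non-overlap of TEB and duct libraries was counted over all genes only across the 6 gates. For other sets of libraries said below to lie apart, that share was not counted.

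Rdh10 (Entrez 98711; chr1:16105882-16132550, GRCm38.p6 in RefSeq) encodes the dehydrogenase that makes retinaldehyde from retinol. Its values were higher in TEBs in each gate, though not every gate passed the test alone. In the Elf5 model it stood at 144 and 108 CPM in basal TEBs and at 103 and 76.2 CPM in basal ducts, and in the PR-cre model at 98.4 and 95.7 CPM in basal TEBs and at 69.3 and 83.4 CPM in basal ducts. In the luminal gates it was 62.4 and 68.5 CPM in GFP-negative TEBs and 19.3 and 17.9 CPM in GFP-negative ducts. It was 57.7 and 50.4 CPM in YFP-positive TEBs and 24.1 and 39.5 CPM in YFP-positive ducts. The step was smaller on the Elf5-rich side. There it was 34.8 and 36.2 CPM in GFP-positive TEBs, against 24.7 and 22.2 CPM in GFP-positive ducts, and 29.7 and 29.6 CPM in YFP-negative TEBs, against 23.8 and 25.8 CPM in YFP-negative ducts. Both TEB libraries lay above both duct libraries in each of the 6 gates, which held for 5.53% of all tested genes.

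Tested over gates, Rdh10 was 1.81-fold higher in luminal TEBs than in luminal ducts (log2 0.86 ± 0.10 SE, n = 8 libraries each, adjusted p = 3.56e-06). It was 2.45-fold higher in GFP-negative and YFP-positive TEBs (log2 1.29 ± 0.14, n = 4 each, adjusted p = 9.05e-06) and 0.43 ± 0.14 higher on the log2 scale in GFP-positive and YFP-negative TEBs (adjusted p = 0.0232), and these TEB effects differed by -0.86 ± 0.19 (adjusted p = 0.00855). Within single gates the call that survived the loss of any library was that in GFP-negative cells, 3.52-fold (adjusted p = 2.52e-05), in a gate where 18.5% of all genes were called. Those in GFP-positive (adjusted p = 0.0342) and YFP-positive cells (0.0208) did not survive it. Rdh10 was not called in Elf5-model basal (adjusted p = 0.052), PR-cre-model basal (0.212) or YFP-negative cells (0.395). In basal cells it was 1.34-fold higher in TEBs (log2 0.42 ± 0.13, n = 4 each, adjusted p = 0.0178). That basal call was lost without any 1 of 3 libraries, Elf5 TEB replicate 1, Elf5 duct replicate 2 or PR-cre duct replicate 1, with adjusted p from 0.0546 to 0.0697. The call in GFP-positive and YFP-negative cells was lost in 6 of 8 such omissions, all but those of replicate 1 of GFP-positive TEBs and of GFP-positive ducts (0.0519 to 0.112). Between compartments, Rdh10 was 2.93-fold higher in basal than in luminal cells (97.2 ± 23.2 against 35.4 ± 16.0 CPM, SD, n = 8 and 16; adjusted p = 1.21e-11). With TMM scaling the 8 basal libraries, the lowest at 69.3 CPM, lay just above the 16 luminal ones, the highest at 68.5 CPM. On plain library totals the layers overlapped, with 63.6 CPM in PR-cre-model basal duct replicate 1 and 71.7 CPM in GFP-negative TEB replicate 2.

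Dhrs3 (Entrez 20148; chr4:144892534-144928209), which turns retinaldehyde back into retinol and is itself a known target of retinoic acid, ran the other way in both respects. It was 8.73 and 5.47 CPM in Elf5-model basal TEBs and 23.6 and 19.2 CPM in the ducts of that model. In the PR-cre model it was 13.4 and 13.5 CPM in basal TEBs and 25.7 and 20.6 CPM in basal ducts. In the luminal gates it was 52.6 and 44.4 CPM in GFP-positive TEBs, against 103 and 150 CPM in GFP-positive ducts, and 74.5 and 62.0 CPM in YFP-negative TEBs, against 149 and 114 CPM in YFP-negative ducts. GFP-negative TEBs had 73.4 and 66.5 CPM and GFP-negative ducts 139 and 139 CPM. The YFP-positive gate was the exception in which the libraries overlapped, with 116 and 83.9 CPM in TEBs and 150 and 96.8 CPM in ducts. TEB below duct in at least 5 of 6 gates held for 8.37% of all tested genes.

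Dhrs3 was 2.28-fold lower in basal TEBs than in basal ducts (log2 -1.19 ± 0.18, adjusted p = 7.76e-05) and 1.87-fold lower in luminal TEBs than in luminal ducts (log2 -0.91 ± 0.12, adjusted p = 3.5e-05). Both luminal sides showed the difference, 2.24-fold lower in GFP-positive and YFP-negative TEBs (adjusted p = 0.000127) and 1.56-fold lower in GFP-negative and YFP-positive TEBs (adjusted p = 0.0138). The call on the GFP-negative and YFP-positive side was lost without YFP-positive duct replicate 1 (log2 -0.46, adjusted p = 0.0823), YFP-positive TEB replicate 2 (0.068) or GFP-negative TEB replicate 2 (0.0561). Dhrs3 was 6.44-fold lower in basal than in luminal cells (16.3 ± 7.17 against 100.9 ± 36.9 CPM, SD, n = 8 and 16; adjusted p = 1.07e-11), and the highest basal library, at 25.7 CPM, lay below the lowest luminal one, at 44.4 CPM.

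Set against each other per kilobase, the transcripts of these enzymes of opposite direction stood in unlike proportions by layer and tissue. The ratio of Rdh10 to Dhrs3, a measure chosen after their values had been seen and given with no test, ran from 5.55 to 15.5 in basal TEBs and from 2.11 to 3.41 in basal ducts. In luminal TEBs it ran from 0.312 to 0.806, and in luminal ducts from 0.101 to 0.319. Its medians were 9.34, 3.14, 0.495 and 0.126 in that order, and in all 6 gates both TEB libraries lay above both duct libraries. That separation follows largely from those of Rdh10 and Dhrs3 given above and adds no separate result. It is a ratio of transcripts, and enzyme amounts and retinaldehyde were not measured.

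**Figure D2:**
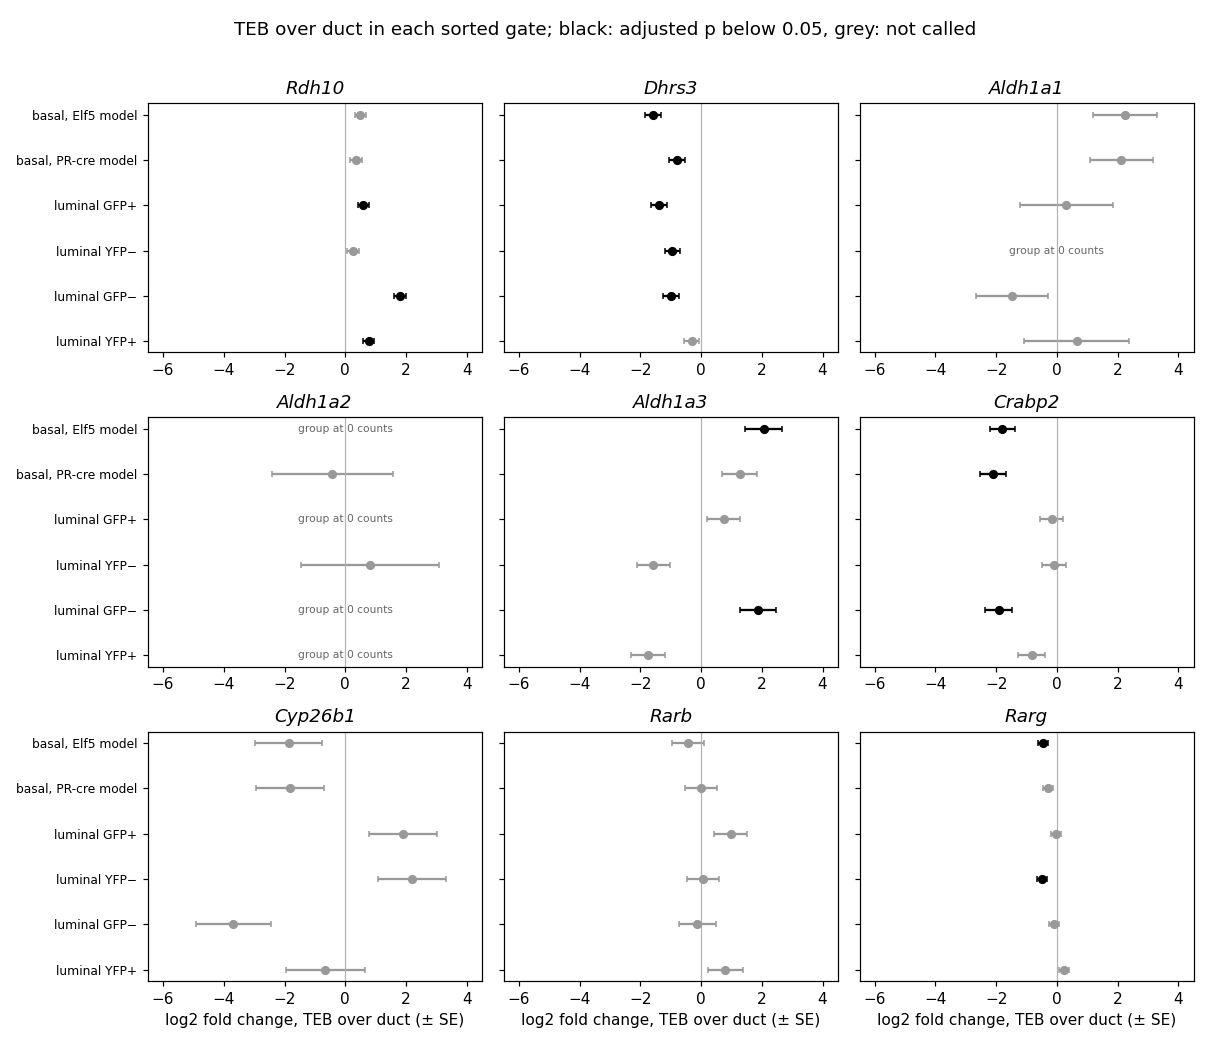
Log2 fold change of TEB over duct, ± SE, for each gene in each of the 6 sorted gates, from edgeR with 2 libraries a group; black marks have an adjusted p under 0.05 and grey marks do not. Rdh10 lies above 0 and Dhrs3 and Crabp2 lie below 0 in all gates, while Aldh1a3 lies above 0 in both basal gates, GFP-positive and GFP-negative cells and below 0 in YFP-negative and YFP-positive cells.

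Other cell types and the state of the gates moved with the basal TEB comparison. The counts of called markers below are read against all tested genes. Of these, 20.9% were higher and 22.8% lower in basal TEBs, and 38.7% were called either way in luminal TEBs. The summed CPM of 12 basal gate markers lay between 9308 and 17294 in basal TEBs and between 36628 and 39832 in basal ducts, with 8 of the 12 genes lower in TEBs. The sum of 9 luminal gate markers lay between 719 and 1027 in basal TEBs and between 1093 and 1451 in basal ducts, with 6 of the 9 lower in TEBs. Immune markers summed to between 6.27 and 10.9 CPM in basal TEBs and between 30.96 and 70.7 CPM in basal ducts, with 8 of 13 lower in TEBs. Adipocyte markers summed to between 10.2 and 17.2 CPM in basal TEBs and between 34.9 and 89.5 CPM in basal ducts, with 3 of 6 tested genes lower in TEBs. Endothelial and pericyte markers summed to between 34.9 and 51.3 CPM in basal TEBs and between 52.97 and 176.7 CPM in basal ducts, with 8 of 12 lower in TEBs. The defining immune gene Ptprc lay between 0 and 0.243 CPM in basal TEBs and between 0.741 and 7.54 CPM in basal ducts. Of 10 Elf5-lineage luminal markers 2 were higher and 4 lower in basal TEBs, with sums of 328 to 1040 CPM there and 270 to 376 CPM in basal ducts. Of 12 fibroblast markers 3 were higher and 1 lower in basal TEBs, with sums of 1070 to 2258 CPM in basal TEBs and 4142 to 6443 CPM in basal ducts; the lower one, Postn, made up 266 to 553 CPM in basal TEBs and 3725 to 5833 CPM in basal ducts. In luminal TEBs against luminal ducts, 5 of the 12 fibroblast markers were higher and 1 lower, with sums of 21.9 to 307 CPM and 27.8 to 353 CPM, and 7 of 10 Elf5-lineage markers were lower. The part of these differences in the retinoid results was not tested. In bulk samples, fewer cells of a type and less RNA per cell cannot be told apart.

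The Aldh1a genes, whose products make retinoic acid from retinaldehyde, were divided between the compartments. They are close relatives, and a stretch of 60 coding bases from GENCODE M21 transcripts is shown because it tells how far reads of one could be taken for another, with capitals at each base that differs from Aldh1a1.
Aldh1a1 (coding bases 722 to 781): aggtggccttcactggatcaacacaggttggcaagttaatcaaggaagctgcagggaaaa
Aldh1a7 (coding bases 722 to 781): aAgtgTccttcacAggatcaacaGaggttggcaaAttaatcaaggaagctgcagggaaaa
Aldh1a2 (coding bases 773 to 832): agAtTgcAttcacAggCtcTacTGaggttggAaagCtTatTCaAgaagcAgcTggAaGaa
Aldh1a3 (coding bases 755 to 814): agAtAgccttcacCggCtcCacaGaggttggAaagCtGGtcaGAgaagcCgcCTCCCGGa
Aldh1a7, a rodent copy of Aldh1a1 on the same chromosome, differs at 5 of the 60 bases, Aldh1a2 at 18 and Aldh1a3 at 20. Over the coding sequence Aldh1a1 was 91.6% identical to Aldh1a7, 68.1% to Aldh1a2 and 67.4% to Aldh1a3. Of the 50-base words of the longest coding Aldh1a1 transcript, 6.54% (151 of 2309) also occur in Aldh1a7, against none of those of the other 8 genes in any other gene. With words of 100 bases, the share for Aldh1a1 was 0.0443% (1 of 2259). The sources used here do not say how reads with several matches were counted, so Aldh1a1 and Aldh1a7 are given side by side.

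Aldh1a1 (Entrez 11668; chr19:20492583-20643463) was a gene of basal cells, highest in basal TEBs. It reached 53.7 and 52.3 CPM in PR-cre-model basal TEBs and 8.77 and 15.6 CPM in basal ducts of that model. In the Elf5 model it was 41.4 and 19.6 CPM in basal TEBs and 11.002 and 1.76 CPM in basal ducts. Every basal TEB library lay above every basal duct library. Over the 16 luminal libraries it ran from 0 to 2.40 CPM with a median of 0.297 CPM, and both YFP-negative duct libraries had 0 counts. Against 3 counts over that group, its mean in basal ducts was at least 275.6-fold higher in the PR-cre model and at least 144.6-fold higher in the Elf5 model. The distance to GFP-negative ducts was far smaller: that group had 1.29 and 2.05 CPM, and the Elf5-model basal duct library at 1.76 CPM lay within its range. In TEBs, where every group had counts, it was 83.6-fold higher in basal than in luminal cells (log2 6.39 ± 0.69, adjusted p = 3.21e-06), in a comparison in which 58.8% of all genes were called. Without YFP-negative TEB replicate 2, which holds the 2.40 CPM and keratinocyte transcripts, this value was 7.26.

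The difference between basal TEBs and ducts was large but uneven for Aldh1a1: 41.7 ± 15.8 CPM in TEBs and 9.27 ± 5.75 CPM in ducts (SD, n = 4 each), 4.55-fold (log2 2.19 ± 0.74, adjusted p = 0.0299). The call was lost in 6 of the 8 fits that left out 1 basal library, with adjusted p from 0.0619 to 0.106 and log2 values from 1.83 to 2.46. It was kept without Elf5 duct replicate 1 (log2 3.16) and without Elf5 TEB replicate 2. Aldh1a7 moved the same way. It was 38.2 and 18.6 CPM in Elf5-model basal TEBs and 7.61 and 0.97 CPM in their ducts, and 64.3 and 51.6 CPM in PR-cre-model basal TEBs and 2.59 and 5.41 CPM in their ducts. Its log2 difference between basal TEBs and ducts was 3.28 ± 0.48 (adjusted p = 5.95e-05), a call that stood in all alternatives run, with 4.41 without Elf5 duct replicate 1. In GFP-negative ducts, by contrast, Aldh1a7 had 6.05 and 8.78 CPM where Aldh1a1 had 1.29 and 2.05 CPM, so the ratio of this pair was not the same in all cells.

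Aldh1a3 (Entrez 56847; chr7:66390892-66427477) was the luminal counterpart and the gene with the widest range of the 9. In YFP-negative cells it stood at 572 and 516 CPM in TEBs and at 1613 and 1622 CPM in ducts. In GFP-positive cells it stood at 340 and 492 CPM in TEBs and at 199 and 296 CPM in ducts. The Pgr-rich side was far lower, with 40.6 and 13.3 CPM in YFP-positive TEBs and 125 and 56.3 CPM in YFP-positive ducts. GFP-negative cells had 10.2 and 25.0 CPM in TEBs and 3.95 and 5.72 CPM in ducts. Basal cells had 11.6 and 9.43 CPM in Elf5-model TEBs and 3.68 and 1.28 CPM in their ducts, and 12.001 and 12.5 CPM in PR-cre-model TEBs and 5.31 and 4.81 CPM in their ducts. All 8 GFP-positive and YFP-negative libraries, the lowest at 199 CPM, lay above all 8 GFP-negative and YFP-positive ones, the highest at 125 CPM.

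Aldh1a3 was 25.7-fold higher in GFP-positive and YFP-negative than in GFP-negative and YFP-positive luminal cells (706 ± 576 against 35.0 ± 40.7 CPM, SD, n = 8 each; log2 4.68 ± 0.31, adjusted p = 1.34e-08). The difference was 34.7-fold within the Elf5 model and 19.0-fold within the PR-cre model, where 45.8% and 50.3% of all genes were called. Aldh1a3 was 17.0-fold lower in basal than in luminal cells (log2 -4.09 ± 0.30, adjusted p = 1.73e-08). Taken per kilobase, Aldh1a3 made up 99.7% of the summed Aldh1a1, Aldh1a2 and Aldh1a3 level in luminal cells and 14.98% in basal cells, where Aldh1a1 made up 84.5%. On the Pgr-rich luminal side Aldh1a1 came to 3.08% of the sum over all groups, but the groups differed. In GFP-negative ducts Aldh1a1 averaged 0.821 and Aldh1a3 1.42 CPM per kilobase, while in YFP-positive ducts they averaged 0.0749 and 26.6 CPM per kilobase.

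**Figure D3:**
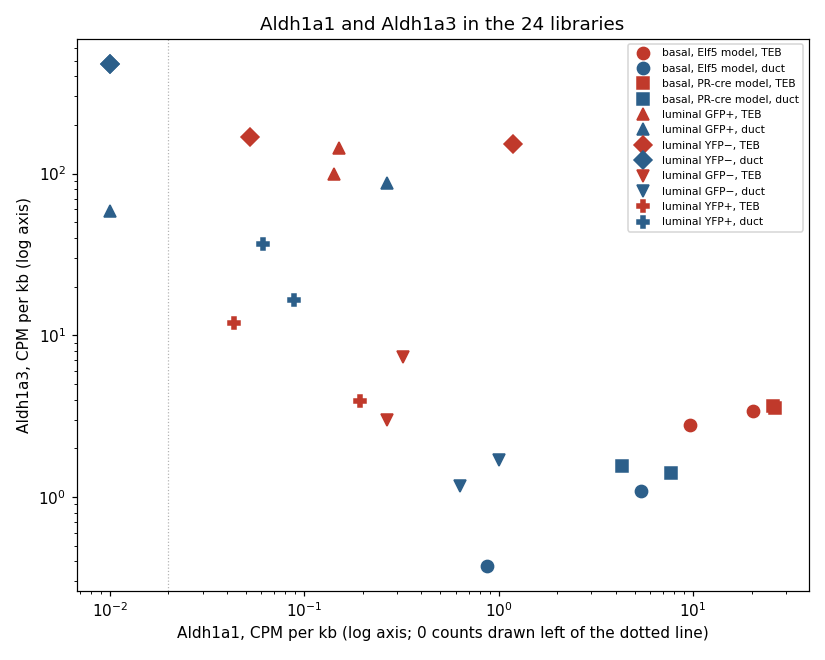
CPM per kilobase of Aldh1a3 against Aldh1a1 in the 24 libraries, both on log axes, with a mark for each sorted gate and tissue. The basal libraries reach the highest Aldh1a1, although 1 basal duct library, at 0.867 CPM per kilobase, lies among the luminal ones; the 8 GFP-positive and YFP-negative libraries lie at the Aldh1a3 end, and the GFP-negative and YFP-positive libraries lie at low Aldh1a1 with Aldh1a3 from 1.16 to 36.7 CPM per kilobase.

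Between TEBs and ducts, Aldh1a3 did not move one way. In basal cells it was 3.17-fold higher in TEBs (11.4 ± 1.34 against 3.77 ± 1.80 CPM, n = 4 each; log2 1.67 ± 0.42, adjusted p = 0.00568), and the 4 TEB libraries lay above the 4 duct libraries. With limma-voom that call was lost (1.73, adjusted p = 0.0638). In luminal cells the log2 difference of TEBs from ducts was -0.18 ± 0.27 (adjusted p = 0.702), and the basal and luminal TEB effects differed by 1.84 ± 0.50 (adjusted p = 0.0149; 0.0734 with limma-voom). The luminal value is an average over gates that went apart. In GFP-positive and in GFP-negative cells the TEB libraries lay above the duct libraries, with log2 values of 0.75 (adjusted p = 0.374) and 1.87 (adjusted p = 0.0417). In YFP-negative and in YFP-positive cells the TEB libraries lay below, with -1.57 (adjusted p = 0.0626) and -1.75 (adjusted p = 0.0748). The GFP-negative call was lost without any 1 of 3 of its 4 libraries, all but TEB replicate 1, and without TEB replicate 2 the value was 1.08 (adjusted p = 0.346). Tested directly, in comparisons added after these values were seen, the TEB effect in GFP-positive minus that in YFP-negative cells was 2.32 ± 0.76 (adjusted p = 0.201), and in GFP-negative minus YFP-positive cells 3.62 ± 0.81 (adjusted p = 0.109), so neither passed. GFP-sorted and YFP-sorted cells, for which mouse model, reporter and sort cannot be told apart, differed in ducts. There YFP-negative cells were 6.53-fold above GFP-positive cells (adjusted p = 0.00566) and YFP-positive cells 18.7-fold above GFP-negative cells (adjusted p = 0.000874), in comparisons in which 14% and 9.81% of all genes were called. The first of these was lost without GFP-positive duct replicate 1 (log2 2.49, adjusted p = 0.0724), and the second was 3.55 without YFP-positive duct replicate 1, against 4.23 with it. In TEBs neither difference passed (log2 0.39 and 0.61, adjusted p = 0.712 and 0.631).

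Aldh1a2 (Entrez 19378; chr9:71215789-71296243), whose product makes most retinoic acid in early embryos, was all but absent. It had 63 counts over the 24 libraries and 0 counts in 16 of them. The highest library was PR-cre-model basal TEB replicate 2 at 0.437 CPM, and its replicate had 0 counts. Basal ducts had 0.401 and 0.180 CPM in the PR-cre model and 0.319 and 0.0608 CPM in the Elf5 model. All 8 GFP-negative and YFP-positive libraries had 0 counts, and the highest of the other luminal libraries had 0.149 CPM. With groups at 0 counts no fold change is given.

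Crabp2 (Entrez 12904; chr3:87948693-87953372), which carries retinoic acid to its receptors, shared the Elf5-rich luminal side with Aldh1a3. It stood at 113 and 99.4 CPM in GFP-positive TEBs and at 124 and 116 CPM in GFP-positive ducts. YFP-negative cells had 63.4 and 57.8 CPM in TEBs and 63.8 and 65.0 CPM in ducts. On the Pgr-rich side it was 2.88 and 1.68 CPM in YFP-positive TEBs, 5.08 and 3.03 CPM in YFP-positive ducts, 1.18 and 2.34 CPM in GFP-negative TEBs and 3.22 and 10.2 CPM in GFP-negative ducts. The lowest GFP-positive or YFP-negative library, at 57.8 CPM, lay far above the highest GFP-negative or YFP-positive one, at 10.2 CPM. The fold change was 25.9 (87.8 ± 27.9 against 3.70 ± 2.87 CPM, SD, n = 8 each; log2 4.69 ± 0.23, adjusted p = 1.71e-10), 32.7 within the Elf5 model and 20.5 within the PR-cre model.

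In basal cells Crabp2 was lower in TEBs in both models. It was 5.21 and 4.40 CPM in Elf5-model TEBs and 19.1 and 14.4 CPM in their ducts, and 2.42 and 3.06 CPM in PR-cre-model TEBs and 11.1 and 12.7 CPM in their ducts. The difference was 3.89-fold (log2 -1.96 ± 0.30, adjusted p = 8.67e-05) and was called in each basal model alone, also without any 1 library. In luminal cells the TEB effect was smaller, -0.75 ± 0.21 on the log2 scale (adjusted p = 0.00965). It came to -1.37 ± 0.31 in GFP-negative and YFP-positive cells (adjusted p = 0.00493) and to -0.13 ± 0.27 in GFP-positive and YFP-negative cells (adjusted p = 0.788). The basal and luminal effects differed by -1.21 ± 0.36 (adjusted p = 0.0217), a call lost in 5 of 24 fits without 1 library, namely Elf5 duct replicate 1, Elf5 TEB replicate 2, PR-cre TEB replicate 1 and PR-cre duct replicate 2 of the basal gate, or YFP-positive TEB replicate 1 (0.0507 to 0.0813). The 2 luminal sides differed by 1.24 ± 0.41, which did not pass (adjusted p = 0.0717). GFP-negative duct replicate 2, the library with keratinocyte transcripts, was the highest of its gate. The values above for all luminal cells and for GFP-negative and YFP-positive cells include that library, as do the differences drawn from them. Without that library the GFP-negative difference was -0.85 in place of -1.92, and its call was lost. In YFP-positive cells alone the difference was -0.83 and was not called (adjusted p = 0.305). With TMM scaling, TEB libraries lay below duct libraries in all 6 gates, as they did for 3.14% of all tested genes. On plain library totals, without TMM scaling, that did not hold on the Elf5-rich side. GFP-positive TEBs then had 123 and 107 CPM, against 106 and 104 CPM in ducts. YFP-negative TEBs had 69.7 and 63.9 CPM, against 63.6 and 64.3 CPM in ducts.

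**Figure D4:**
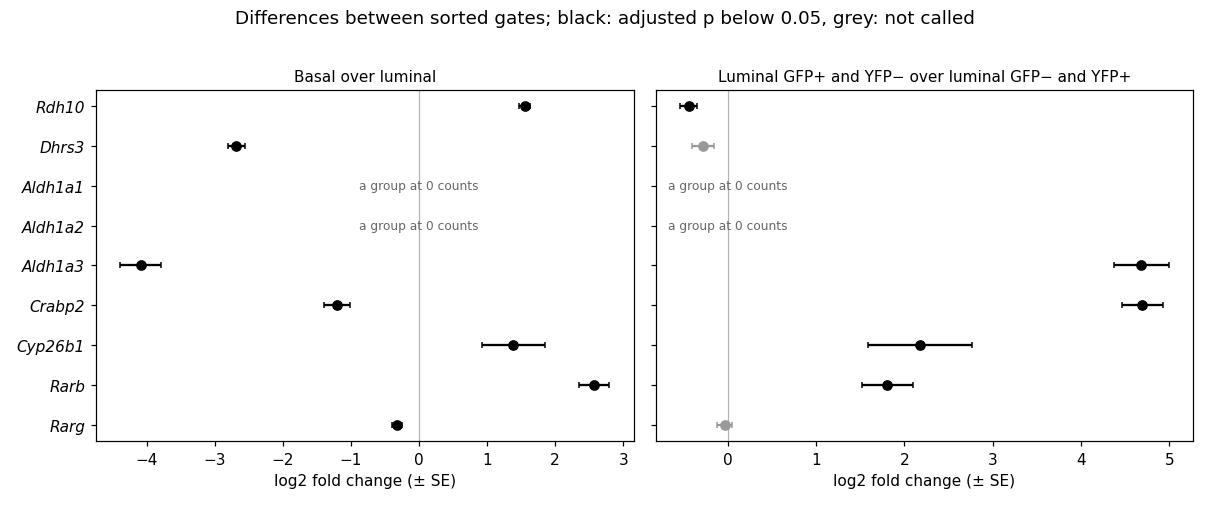
Log2 fold change ± SE of each gene in basal over luminal cells (left) and in GFP-positive and YFP-negative over GFP-negative and YFP-positive luminal cells (right), from edgeR. Rarb, Rdh10 and Cyp26b1 lie above 0 and Aldh1a3 and Dhrs3 furthest below 0 on the left, and Crabp2 and Aldh1a3 reach 4.69 and 4.68 on the right; genes with a compared group at 0 counts are marked and have no value.

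Cyp26b1 (Entrez 232174; chr6:84571414-84593908), which breaks retinoic acid down, was low and varied widely between libraries of a group. It was 2.20 and 2.75 CPM in Elf5-model basal TEBs and 11.1 and 6.81 CPM in basal ducts of that model. In the PR-cre model it was 1.52 and 1.46 CPM in basal TEBs and 4.29 and 6.25 CPM in basal ducts. All 4 basal TEB libraries lay below all 4 basal duct libraries, but the difference of -1.84 ± 0.78 did not pass (adjusted p = 0.0711). It passed with DESeq2 (adjusted p = 0.0222), with limma-voom (0.0306) and without the 2 libraries with keratinocyte transcripts (0.00254), neither of which is a basal library.

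In luminal cells Cyp26b1 was 4.24 and 7.32 CPM in GFP-positive TEBs and 1.82 and 1.27 CPM in GFP-positive ducts, and 10.4 and 2.06 CPM in YFP-negative TEBs and 2.46 and 0.226 CPM in YFP-negative ducts. It was 0.264 and 0.254 CPM in YFP-positive TEBs and 0.398 and 0.420 CPM in YFP-positive ducts. GFP-negative cells had 0.231 and 0.481 CPM in TEBs and 0.252 and 9.06 CPM in ducts. The value of 9.06 CPM belongs to the library with the most keratinocyte transcripts. Averaged over luminal cells, the TEB effect was -0.06 ± 0.55, and without the 2 libraries with keratinocyte transcripts it was 1.16 (adjusted p = 0.035). Between the luminal sides, Cyp26b1 was 4.52-fold higher in GFP-positive and YFP-negative cells (3.72 ± 3.46 against 1.42 ± 3.09 CPM, SD, n = 8 each; log2 2.18 ± 0.59, adjusted p = 0.00535). It was 3.40 higher on the log2 scale without both libraries and 3.19 without GFP-negative duct replicate 2, and the call was lost without YFP-negative duct replicate 1 (1.499, adjusted p = 0.0517). The average covers unlike parts. In TEBs the sides differed by 4.29 ± 0.90 (adjusted p = 0.00105; 3.49 without YFP-negative TEB replicate 1) and in ducts by 0.07 ± 0.78 (adjusted p = 0.9999), or by 2.14 in ducts without GFP-negative duct replicate 2 (adjusted p = 0.0227). Within the Elf5 model the difference was 1.21 ± 0.80 (adjusted p = 0.243), and 3.26 without that library (adjusted p = 0.00175). Within the PR-cre model it was 3.15 ± 0.88 (adjusted p = 0.00749), and the call was lost without YFP-negative duct replicate 1 (1.82, adjusted p = 0.152) and with limma-voom (0.0889); without YFP-negative TEB replicate 1 it was 2.35. The TEB effects of the 2 sides differed by 4.22 ± 1.19 (adjusted p = 0.0346), a call lost in 13 of 16 fits without 1 luminal library and kept without GFP-negative duct replicate 1, YFP-negative duct replicate 1 (5.46) or YFP-negative TEB replicate 2. The value was 3.42 without YFP-negative TEB replicate 1. Without both keratinocyte libraries that difference was 2.50 (adjusted p = 0.0635), and without GFP-negative duct replicate 2 alone it was 2.09 (adjusted p = 0.175). Cyp26b1 was 2.61-fold higher in basal than in luminal cells (log2 1.39 ± 0.46, adjusted p = 0.0154). In ducts alone, where 63.3% of all genes were called, the difference was 2.28 (adjusted p = 0.00615), with 3.26 without GFP-negative duct replicate 2 and 2.86 without YFP-negative duct replicate 1. In TEBs alone it was 0.50 (adjusted p = 0.57).

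Rarb (Entrez 218772; chr14:16430839-17082331) encodes the receptor that retinoic acid itself induces, through a repeated half-site ahead of one of its starts. That promoter is shown because it is the classic response element of the pathway, as chr14:16575477-16575609 on the minus strand (RefSeq, GRCm38.p6), with capitals on the direct repeat with 5 bases between its parts (DR5), at positions -53 to -37 from the start.
Rarb promoter: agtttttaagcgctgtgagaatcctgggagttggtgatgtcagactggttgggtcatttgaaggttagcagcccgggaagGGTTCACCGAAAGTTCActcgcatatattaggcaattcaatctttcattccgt
Direct repeats of the retinoid half-site with 1, 2 or 5 bases between them (DR1, DR2, DR5) were searched on both strands of 32851 promoter windows of 300 bases. DR1 was found in 0.222% of them, DR2 in 0.268% and DR5 in 0.0974% (32 windows). Windows were at hand for 6 of the 9 genes, and none of the 3 motifs was found in those of Aldh1a1, Aldh1a2, Dhrs3, Rarg and Cyp26b1. A match is a description of letters, and binding was not measured here.

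Rarb was a low, mainly basal transcript. It was 6.19 and 4.73 CPM in Elf5-model basal TEBs and 5.84 and 8.90 CPM in their ducts, and 5.60 and 3.18 CPM in PR-cre-model basal TEBs and 4.63 and 4.18 CPM in their ducts. With TMM scaling the lowest basal library, PR-cre-model TEB replicate 2 at 3.18 CPM, lay just above the highest luminal one, GFP-positive TEB replicate 1 at 3.03 CPM. On plain library totals these libraries had 3.27 and 3.29 CPM, so the order turned round. The other luminal libraries on the Elf5-rich side lay between 0.918 and 2.58 CPM, and those on the Pgr-rich side between 0.224 and 0.924 CPM. Rarb was 5.94-fold higher in basal than in luminal cells (5.41 ± 1.71 against 1.11 ± 0.852 CPM, SD, n = 8 and 16; adjusted p = 1.54e-08). It was 3.50-fold higher in GFP-positive and YFP-negative than in GFP-negative and YFP-positive cells (log2 1.81 ± 0.29, adjusted p = 3.77e-05). Between TEBs and ducts it differed by -0.22 ± 0.37 in basal cells (adjusted p = 0.681) and by 0.43 ± 0.28 in luminal cells (adjusted p = 0.267), and TEB and duct libraries overlapped in 5 of 6 gates.

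Rarg (Entrez 19411; chr15:102234938-102257522), the other receptor gene of the set, was the most even. Over all 24 libraries it ran from 59.4 to 139 CPM with a median of 90.4 CPM. The highest value was that of GFP-negative duct replicate 2, the library with the most keratinocyte transcripts. Per kilobase it averaged 29.0 CPM, against 0.917 CPM per kilobase for Rarb. In basal cells it was 70.0 and 59.4 CPM in Elf5-model TEBs and 87.3 and 90.3 CPM in their ducts, and 72.7 and 76.4 CPM in PR-cre-model TEBs and 90.4 and 92.0 CPM in their ducts, without overlap. That difference of 1.30-fold was called (log2 -0.37 ± 0.11, adjusted p = 0.0127) and was lost without any 1 of 4 basal libraries, Elf5 duct replicate 2, Elf5 TEB replicate 2, PR-cre TEB replicate 1 or PR-cre duct replicate 2 (0.0504 to 0.0665). In luminal cells TEBs differed from ducts by -0.09 on the log2 scale (adjusted p = 0.436), and the 2 luminal sides differed by -0.04 (adjusted p = 0.78). Rarg was 1.25-fold lower in basal than in luminal cells (79.8 ± 11.97 against 99.9 ± 17.6 CPM, SD, n = 8 and 16; adjusted p = 0.000528), with overlapping libraries.

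The levels can also be read as an order of the 12 groups. For Aldh1a3, 8 of the 11 neighbouring pairs in that order had libraries that did not overlap, from YFP-negative ducts at 1617 ± 6.45 CPM through YFP-negative TEBs at 544 ± 39.6, GFP-positive TEBs at 416 ± 108 and GFP-positive ducts at 248 ± 68.6 CPM (SD, n = 2 each) downwards. For Crabp2 and Rdh10 6 of 11 neighbouring pairs were apart, for Dhrs3 5, for Aldh1a1, Rarb and Rarg 4, for Cyp26b1 1 and for Aldh1a2 0. Most of the order of the Cyp26b1 groups is therefore within the spread of their libraries. The same count was not made for all tested genes, and pairs with n = 2 each can lie apart without a difference. Whether any of these counts is unusual was therefore not tested.

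Across the 12 group means, Dhrs3 ran against the basal genes of the set, with Pearson r = -0.906 to Aldh1a1 and -0.89 to Rdh10 in log2(mean CPM + 0.5), and Aldh1a3 ran with Crabp2 at 0.684. These points share their 24 libraries and fall into basal and luminal gates, so the values are a description with no test. Among all tested genes, the nearest patterns were Slc27a6, Ltb4r2 and Ltb4r1 for Aldh1a1 (r from 0.981 to 0.987) and Eapp, Casz1 and Zfp467 for Dhrs3 (0.981 to 0.990). Il15ra, Acad9 and Hivep3 were nearest to Crabp2 (0.966 to 0.977), and Tshz1, Aatk and Nectin3 to Rarb (0.973 to 0.978). Lrrc8d at 0.968, Entrez 100503558 at 0.960 and Wee1 at 0.956 were nearest to Aldh1a3. Rdh10 had less close neighbours, with Tusc3, Diablo and Phlda3 at 0.929 to 0.944, as had Rarg, with 4833419F23Rik, 5730480H06Rik and Zkscan6 at 0.885 to 0.921. Those of Cyp26b1 were Entrez 319527, Lax1 and Mfap3l, each at about 0.880, and those of Aldh1a2, which rests on 63 counts, were led by 6030407O03Rik at 0.977.

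The rest of the pathway was read from a list of 48 other retinoid genes, of which 41 were tested. In basal TEBs 6 were higher and 11 lower than in basal ducts, where 20.9% of all genes were higher and 22.8% lower, with a median log2 difference of -0.114, against -0.0351 over all tested genes. Of the 11 receptor and cofactor genes among them, 2 were higher and 8 lower, with a median of -0.391; this group was not tested against other genes. Rara, the third retinoic acid receptor gene, lay between 9.13 and 10.9 CPM in basal TEBs and between 25.7 and 34.4 CPM in basal ducts, a log2 difference of -1.56 ± 0.16 (adjusted p = 7.13e-07). It fell more in basal than in luminal TEBs (-1.04 on the log2 scale, adjusted p = 0.000573). Fabp5, which can carry retinoic acid to other nuclear receptors, lay between 24.6 and 44.4 CPM in basal TEBs and between 2.93 and 9.06 CPM in basal ducts. Its log2 difference was 2.63 ± 0.78 (adjusted p = 0.0136) and lost its call without Elf5 duct replicate 2 (0.0625) or PR-cre duct replicate 1 (0.062). Crabp1, the relative of Crabp2, was called higher (2.97 ± 1.16, adjusted p = 0.0486) but lost that call in each of the 7 fits without 1 basal library that gave a value (2.31 without Elf5 TEB replicate 1 to 3.53, adjusted p from 0.0543 to 0.193). Of 20 known response genes 16 were tested in basal TEBs, 2 higher and 4 lower. Tgm2, a transglutaminase gene induced by retinoic acid in many cells, lay between 22.1 and 60.9 CPM in basal TEBs and between 133 and 196 CPM in basal ducts (log2 -2.002 ± 0.32, adjusted p = 0.000146), and Egr1, an immediate-early gene, was lower as well (-1.87, adjusted p = 0.000103).

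In luminal TEBs 8 of the 41 other retinoid genes were higher and 8 lower than in luminal ducts, where 38.7% of all genes were called, with a median of -0.102 against -0.000517 over all tested genes. Rbp7, a cellular retinol-binding protein gene, lay between 30.2 and 42.4 CPM in GFP-positive and YFP-negative TEBs and between 1.84 and 7.92 CPM in their ducts (log2 3.09, adjusted p = 0.00025), and over all luminal cells its difference was 1.95 (adjusted p = 0.00169). Rbp4, the plasma carrier of retinol, was called over all luminal cells (2.27, adjusted p = 0.0269) and lost the call without GFP-positive duct replicate 1, YFP-positive duct replicate 1, YFP-negative TEB replicate 1 or YFP-negative duct replicate 2 (0.0505 to 0.076). Without GFP-positive duct replicate 2 or GFP-negative duct replicate 1 it was 3.06 or 2.99. Among response genes, Egr1 and Btg2, which are also induced by many other signals, were lower in luminal TEBs (-1.82 and -1.51, adjusted p = 8.01e-06 and 2.74e-07). Btg2 was lower by 2.26 on the log2 scale in GFP-positive and YFP-negative TEBs and by 0.76 in GFP-negative and YFP-positive TEBs, and the sides differed by -1.499 (adjusted p = 0.0011).

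On the GFP-positive and YFP-negative side 7 of the 41 were higher and 9 lower in TEBs (median 0.116, against 0.0158 over all tested genes, of which 32.6% were called), and on the GFP-negative and YFP-positive side 2 were higher and 5 lower (median -0.0062, against 0, with 24.6% of all genes called). Adh7, an alcohol dehydrogenase gene, was called higher in GFP-positive and YFP-negative TEBs (3.24, adjusted p = 0.0354) and was 1.26 (adjusted p = 0.407) without YFP-negative TEB replicate 2; of the 6 fits without 1 library that gave a value, that without YFP-negative TEB replicate 1 alone kept the call. YFP-negative TEB replicate 2 held 6.51 CPM of Adh7 and its replicate 0.209 CPM. In GFP-negative and YFP-positive TEBs the retinol dehydrogenase genes Rdh5 (-1.14, adjusted p = 0.0102) and Rdh13 (-0.58, adjusted p = 0.000733) were lower, the first not without YFP-positive duct replicate 1 (adjusted p = 0.0737). The basal and luminal TEB effects differed for 2 genes upwards and 7 downwards of the 41, where 26.3% of all genes were called. The response genes Tgm2 (-2.18, adjusted p = 0.000684) and Hoxb2 (0.77, adjusted p = 0.00131) and the dehydrogenase gene Rdh13 (-0.76, adjusted p = 0.000251) differed in this way, and the Fabp5 value of 2.90 (adjusted p = 0.047) lost its call in 20 of 23 fits without 1 library, all but those of basal Elf5 duct replicate 1, GFP-positive duct replicate 2 and GFP-negative duct replicate 1. Between the luminal sides 1 of the 41 differed, where 10.6% of all genes were called, namely Rdh13 (0.74, adjusted p = 0.00408), and of the response genes Hoxb2 (-0.73, adjusted p = 0.0143; 0.0535 without the 2 libraries with keratinocyte transcripts) beside Btg2.

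In basal against luminal cells 16 of the 41 were higher and 10 lower (median -0.0099, against 0.0192 over all tested genes, of which 35.5% were higher and 32.2% lower), and of the 16 response genes tested 9 were higher and 3 lower. Fabp5 (3.29) and the retinol dehydrogenase gene Rdh12 (3.21) were higher in basal cells on the log2 scale, with adjusted p = 2.03e-05 and 0.000199. Foxa1, a luminal transcription factor gene on the response list, and Tgm2 were lower by 6.92 and 3.72 (adjusted p = 2.88e-12 and 1.69e-09). In GFP-positive and YFP-negative against GFP-negative and YFP-positive luminal cells 12 were higher and 12 lower (median 0.187, against 0.0449 over all tested genes, of which 29.6% were higher and 27.4% lower). Rbp7 (5.48, adjusted p = 2.29e-08) was higher on the Elf5-rich side. Rbp4 (-4.47, adjusted p = 0.000101; -5.32 without GFP-positive duct replicate 2 and -3.79 without GFP-negative duct replicate 1), the retinol-oxidising alcohol dehydrogenase gene Adh1 (-3.78, adjusted p = 5.99e-05) and Foxa1 (-3.64, adjusted p = 1.26e-09) were lower there. Of 16 other ALDH family genes, 8 were higher and 5 lower in basal than in luminal cells, and 4 were higher and 10 lower in GFP-positive and YFP-negative than in GFP-negative and YFP-positive cells, against the shares of all genes just given.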

How the data were processed

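The deposited files hold whole-number read counts per gene for 24 libraries, with a series-wide table that matched them (0 values differed). The authors used featureCounts with mm10, per the submitters' processing notes. The aligner, annotation, strand setting and treatment of multi-mapping reads were not given in the sources used here. Per the labels' protocols, RNA came from a miRNeasy kit with DNase treatment and the libraries from TruSeq RNA v2 chemistry. Groups and replicate numbers came from the titles. Replicates differed by more than counting noise (chi-square over its degrees of freedom 15.5 to 149.4), and no pair held identical values. Intervals and floors, such as that of 3 counts, cover counting error only.

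Symbols came from RefSeq for 25275 of the 27179 Entrez identifiers and from GENCODE for 18. The analysis used R 4.3.3, edgeR 4.0.16 and limma 3.58.1. Genes were kept by filterByExpr (minimum count 10, minimum total 15), libraries were scaled by TMM, and 1 robust quasi-likelihood model with 12 group means (12 residual degrees of freedom) was fitted to all libraries, so that groups of 2 share an estimate of spread. Contrasts average group means on the log2 scale and need not equal ratios of mean CPM. The SE given with a log2 difference is its absolute value over the square root of the quasi-likelihood F statistic. It is not an SE over the libraries compared. Where a compared group had 0 counts, CPM or a bound is given in place of a fold change. CPM per kilobase uses the counted exon lengths deposited with the counts. On simulated counts of 18109 genes for basal TEBs against ducts the model recovered 99% of 99 genes changed by 1 and 100% of 101 changed by 2 on the log2 scale, with 11 false calls. These counts had the same fixed dispersion for every gene, few genes were changed, and none of those was a low gene. They check the coding of the fit and do not measure its power at the spread of the real libraries or for low genes.

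The 9 genes and all lists were chosen with earlier results of these data known. Named among the other retinoid genes were, per main comparison, the 5 called genes with the largest log2 difference and no compared group at 0, except 1 gene that is not reported here; Aldh1a7 and the CPM ranges beside them were chosen after values were seen. Nearest patterns are the 3 genes with the highest Pearson r per gene over the 12 group means. Alternatives were DESeq2 1.42.0 size factors and Wald test, limma-voom, no filter, each library left out, the replicate number as a block, and the omission of the 2 libraries with keratinocyte transcripts. Levels in CPM were also taken on plain library totals. Comparisons between the mouse models were added after the data were seen. Promoter windows are from RefSeq (GRCm38.p6) and the Aldh1a coding stretches from GENCODE M21.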

Additional observations from a re-analysis of the deposited data

Results flagged for a closer look

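The gap between the highest or lowest library and its nearest neighbour was set against the range of its set, in 50 sets of 4 libraries with a critical share of 0.829; chance gives such a gap in about 5% of sets, and 5 sets had one. In GFP-positive and YFP-negative TEBs, Aldh1a1 was 2.40 CPM in YFP-negative TEB replicate 2, a library with keratinocyte transcripts, and 0.106 to 0.305 CPM in the other 3, a gap of 0.913 of the range. In GFP-positive and YFP-negative ducts, Aldh1a1 was 0.538 CPM in GFP-positive duct replicate 2 and had 0 counts in the other 3, a gap of 1.0 of the range. Aldh1a2 in basal TEBs was 0.437 CPM in PR-cre-model replicate 2 and had 0 counts in the other 3, again a gap of 1.0. Cyp26b1 was 0.481 CPM in GFP-negative TEB replicate 2 and 0.231 to 0.264 CPM in the other GFP-negative and YFP-positive TEB libraries, a gap of 0.866. It was 9.06 CPM in GFP-negative duct replicate 2, the library with the most keratinocyte transcripts, and 0.252 to 0.420 CPM in the other 3 duct libraries of that side, a gap of 0.981.

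The TEB effect differed between compartments for 4 tests. For Crabp2 the basal minus the luminal effect was -1.21 on the log2 scale, and for Aldh1a3 it was 1.84. For GFP-positive and YFP-negative minus GFP-negative and YFP-positive cells, it was -0.86 for Rdh10 and 4.22 for Cyp26b1. What lies behind these differences was not tested.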

How the results depend on the processing

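The counts of called genes among the 9 stayed within 1.5 times the reported ones, with these exceptions. In basal TEBs against ducts (6 called) leaving out 1 library gave 3 to 6. In GFP-positive and YFP-negative TEBs (2 called) it gave 1 to 3 and DESeq2 gave 4. In GFP-negative and YFP-positive TEBs (3 called) it gave 2 to 4. For the basal minus luminal TEB effect (2 called) it gave 1 to 4, and the omission of the 2 libraries with keratinocyte transcripts gave 4. For the TEB effect between luminal sides (2 called) it gave 1 to 3, DESeq2 gave 4 and limma-voom 1. In single gates, leaving out 1 library gave 2 to 5 in Elf5-model basal cells (4 called), 1 in PR-cre-model basal cells and in GFP-positive cells (2 called in each), 0 to 2 in YFP-negative cells (2 called), 2 to 4 in GFP-negative cells (4 called) and 0 to 1 in YFP-positive cells (1 called). The omission of the 2 libraries with keratinocyte transcripts gave 1 in GFP-negative cells, 6 in Elf5-model basal cells and 3 in PR-cre-model basal and in GFP-positive cells. DESeq2 gave 4 in YFP-negative and 2 in YFP-positive cells, and limma-voom gave 1 in GFP-positive, 3 in YFP-negative and 2 in YFP-positive cells. The cause was not tested. Of the values of single genes 1 turned round: Cyp26b1 in luminal TEBs against ducts was -0.06, and 1.16 (adjusted p = 0.035) without those 2 libraries.

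Deviations of same-numbered libraries within a mouse model correlated at 0.047 to 0.311 over 15 pairs of groups in the Elf5 model (10 over 0.1) and at -0.0096 to 0.19 over 15 in the PR-cre model (3 over 0.1). The column names carry the same number across the gates of a model, but no label says what a number shares. For that reason the main fit does not pair libraries. The correlations cannot exclude pairing, as all of those in the Elf5 model were positive. With the replicate block, 3 genes in place of 2 were called for the basal minus luminal effect, the added one being Rdh10 (-0.44, adjusted p = 0.0423), and 6 in place of 5 between the luminal sides, the added one being Dhrs3 (-0.27, adjusted p = 0.0288). Calls were also gained for Rdh10 in Elf5-model basal cells (0.50, adjusted p = 0.0382) and Rarg in YFP-positive against GFP-negative ducts (-0.47, adjusted p = 0.0453), while Crabp1 in basal TEBs (2.93, adjusted p = 0.0707), Fabp5 in the basal minus luminal effect (2.92, adjusted p = 0.0659) and Crabp2 between basal and luminal ducts (-0.58, adjusted p = 0.0702) lost their calls. Depth limits Aldh1a2 and luminal Aldh1a1, which lie near the CPM of 3 counts, and low Cyp26b1 and Rarb rest on few reads.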
